A study of Saccharomyces cerevisiae with 5 samples.

Results

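The cytochrome bc1 complex, respiratory complex III, takes electrons from ubiquinol, passes them to cytochrome c and pumps protons across the inner mitochondrial membrane. In Saccharomyces cerevisiae its catalytic centre is built from cytochrome b, cytochrome c1 and the Rieske iron-sulfur protein, surrounded by a pair of core proteins and a set of small subunits without redox groups. Cytochrome b is encoded in the mitochondrial genome and all the other subunits in the nucleus, so that the complex draws on both genomes. In budding yeast, which ferments when glucose is plentiful, respiratory genes are held down by glucose and by lack of oxygen or heme, and the Hap1 and Hap2/3/4/5 activators drive many of them.

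The genes examined are the 9 nuclear genes for subunits of this complex, chosen by gene name among the 6256 genes on the array. They are CYT1 (YOR065W, cytochrome c1), RIP1 (YEL024W, the Rieske protein), COR1 (YBL045C) and QCR2 (YPR191W), the core proteins, and QCR6 (YFR033C), QCR7 (YDR529C), QCR8 (YJL166W), QCR9 (YGR183C) and QCR10 (YHR001W-A), the small subunits. All 9 were found, each with 1 probe printed as 7 spots per array, and by their systematic names they lie on 9 different chromosomes. The mitochondrial gene for cytochrome b, COB (Q0105), was examined beside them.

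The data are 5 two-colour arrays of 5 RNA samples, all from wild-type cultures of the strain given in the labels as Sigma 1287b, L5366, and in the study as Sigma1278b, grown at 30 °C in rich medium with dextrose to mid-log phase. RNA carried Cy3 and genomic DNA of the same strain carried Cy5, with no dye swap, so a dye effect remains in every ratio. The arrays form 1 group with no treatment, and the labels do not say whether each RNA came from its own culture, so the SD between arrays may be partly technical. Scanning took place in a pair of sessions, with arrays 4 and 5 in the later one, which is also 1 slide.

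A level is the log2 of RNA over genomic DNA signal of a gene's probe, after quantile normalization, relative to the median gene. The probe is its own reference, so levels of different genes were set side by side without dividing by gene length. Where each probe lies within its transcript was not used here. Median background-subtracted intensity over gene spots was 1406 to 1997 for RNA and 11288 to 12951 for genomic DNA. Every spot of the 9 genes was well above background in both channels on every array, and 33 to 35 of the 35 spots per gene were used.

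All 9 genes stood above the median gene on 5 of 5 arrays and, by mean level, above the 75th percentile. This position depended on how the signal was processed, since under loess COR1, QCR2, QCR6 and QCR7 read -0.43, -0.11, -0.43 and -0.27 log2, and QCR6 read -0.00096 with processed signals. The complex's median level was 2.04 ± 0.06 log2 (SD, n = 5), which is 4.12-fold the median gene, at the 86.7th percentile. Under loess it was 0.37 log2 and with processed signals 0.71. Only 2 of the 9, QCR8 and CYT1, passed the 90th percentile. The order was led by QCR8, a small subunit, then CYT1, a redox subunit, and the core proteins closed it. QCR8 led under every treatment of the signal shown, but QCR10 closed the order by RNA alone, and QCR6 closed it, with QCR10 at rank 2, under loess and with processed signals. From the highest to the lowest gene the levels differed by 1.93 ± 0.09 log2 within an array. As mean levels over arrays, QCR8 stood 3.74-fold above COR1.

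**Figure D1:**
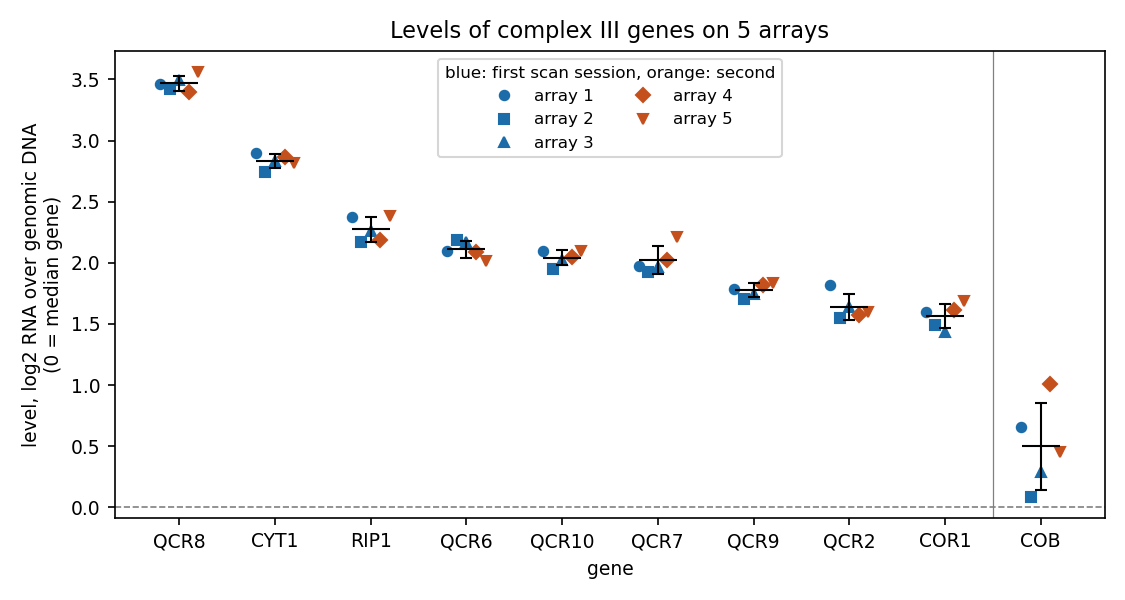
Levels of the 9 nuclear complex III genes and of mitochondrial COB (log2 RNA over genomic DNA, 0 at the median gene), 1 point per array, with the mean and SD of 5 arrays as black bars. QCR8 was highest and CYT1 second on every array, while COB spread from 0.087 to 1.01.

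The redox subunits were taken first. CYT1, the cytochrome that hands electrons to cytochrome c, stood at 2.90, 2.75, 2.83, 2.86 and 2.81 log2 on arrays 1 to 5. Its mean of 2.83 ± 0.06 (SD, n = 5), 7.11-fold the median gene, ranked second among the 9 on every array. RIP1, whose iron-sulfur cluster accepts the first electron from ubiquinol, stood at 2.37, 2.17, 2.26, 2.18 and 2.39. Its highest values were those of arrays 1 and 5, and its mean was 2.27 ± 0.10 (SD, n = 5), or 4.84-fold the median gene. The values of both genes did not overlap. CYT1 exceeded RIP1 by 0.56 ± 0.09 on 5 of 5 arrays.

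The core proteins Cor1 and Qcr2 face the matrix and are relatives of the mitochondrial processing peptidase. COR1 stood at 1.60, 1.49, 1.44, 1.61 and 1.68 log2 on arrays 1 to 5, a mean of 1.56 ± 0.10 (SD, n = 5). QCR2 stood at 1.82, 1.55, 1.64, 1.57 and 1.60, a mean of 1.63 ± 0.11. The ranges of the core genes overlapped, and QCR2 was the higher on 3 of 5 arrays, by 0.071 ± 0.14 on average. They were the lowest of the 9 genes by mean, at 2.96-fold and 3.11-fold the median gene. Their shared median lay 0.95 ± 0.03 log2 under that of the redox subunits on 5 of 5 arrays.

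The value of QCR2 on array 1 rests on leaving out 1 spot with an outlier flag. Before normalization its 6 other spots gave log2 ratios between -0.91 and -0.78, and the flagged spot gave 3.34. The RNA intensity of that spot was 559761, while the 6 others lay between 8996 and 11850. With flagged spots kept, QCR2 would read 2.42 on array 1 and 1.57 to 1.63 on the other arrays, and its mean would be 1.76. With flagged spots kept, no other member's mean moved by more than its SD between arrays.

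Among the small subunits, QCR8 stood apart. Its product binds close to cytochrome b and enters the complex early in assembly together with Qcr7. QCR8 stood at 3.46, 3.42, 3.50, 3.40 and 3.56 log2 on arrays 1 to 5, a mean of 3.47 ± 0.06 (SD, n = 5), 11.1-fold the median gene and rank 307 of the 6256 genes. No other member reached its lowest value. QCR8 exceeded CYT1, the next in order, by 0.64 ± 0.09 on 5 of 5 arrays.

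The other small subunits lay closer together. QCR6 encodes an acidic subunit beside cytochrome c1 and stood at 2.09, 2.18, 2.17, 2.09 and 2.01, a mean of 2.11 ± 0.07 (SD, n = 5). QCR10, for a dispensable small subunit, stood at 2.10, 1.95, 2.02, 2.05 and 2.09, a mean of 2.04 ± 0.06. QCR7, the partner of Qcr8 in early assembly, stood at 1.98, 1.93, 1.97, 2.02 and 2.22, a mean of 2.02 ± 0.11. These 3 genes overlapped throughout, and array 5 was the highest for QCR7 and the lowest for QCR6. QCR9, whose small product is needed for full activity of the complex, stood at 1.79, 1.70, 1.75, 1.82 and 1.84, a mean of 1.78 ± 0.06. Its highest array lay under the lowest of QCR6, QCR7 and QCR10.

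Neighbours in the order of mean levels were then compared within arrays by flipping signs in an exact permutation test (two-sided), in which the smallest p that 5 arrays can give is 0.062. The order came from these same 5 arrays, so the pairs and their directions were set by the values tested. The p therefore cannot serve as a test of the order. How repeatable a step was is described by its count of arrays with the same sign and its SD. In 3 of the 8 comparisons the sign was the same on 5 of 5 arrays, which by itself gives this smallest p. These were QCR8 over CYT1, CYT1 over RIP1, and QCR7 over QCR9 (0.24 ± 0.08 log2, SD, n = 5). Since no comparison can fall under 0.05 in this design, their sizes against their SD are given. RIP1 exceeded QCR6 by 0.16 ± 0.16 and QCR9 exceeded QCR2 by 0.14 ± 0.11, each on 4 of 5 arrays (exact permutation p = 0.125 for both). QCR6 over QCR10 (0.069 ± 0.12, exact permutation p = 0.375), QCR10 over QCR7 (0.021 ± 0.09, exact permutation p = 0.562) and QCR2 over COR1 (exact permutation p = 0.375) differed by less than their SD. The order was thus the same on every array at 3 steps, below QCR8, below CYT1 and between QCR7 and QCR9, and changed between arrays at the other 5. QCR8 over CYT1 and CYT1 over RIP1 kept their direction by RNA alone and with normexp, processed signals and loess. QCR7 over QCR9 did not, since QCR7 read 1.69 and QCR9 1.88 with normexp, 0.084 and 0.79 with processed signals, and -0.27 and 0.55 with loess. The sizes of the steps that kept their direction also varied. CYT1 and RIP1 read 3.12 and 2.48 by RNA alone and 2.79 and 2.26 with normexp. They read only 0.80 and 0.71 with processed signals, and 0.43 and 0.37 with loess. QCR8 and CYT1 lay closest by RNA alone, at 3.34 and 3.12, and farther apart under the other treatments.

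Part of this order came from the RNA signal and part from the divisor. In RNA intensity the members ranged from 5480 (QCR10) to 16717 (QCR8), as means of 5 arrays. In genomic DNA intensity they ranged from 9254 (QCR10) to 19445 (QCR6). The genomic DNA signals of these probes were thus unequal, and their SD over the 9 genes was 0.37 log2, against 0.57 for RNA and 0.61 for the ratio. QCR10 had both the lowest RNA and the lowest genomic DNA signal, and it ranked 9 of 9 by RNA alone but 5 of 9 by the ratio. QCR6 had the highest genomic DNA signal and ranked 3 of 9 by RNA alone but 4 of 9 by the ratio. QCR8 was first and CYT1 second by either measure.

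**Figure D2:**
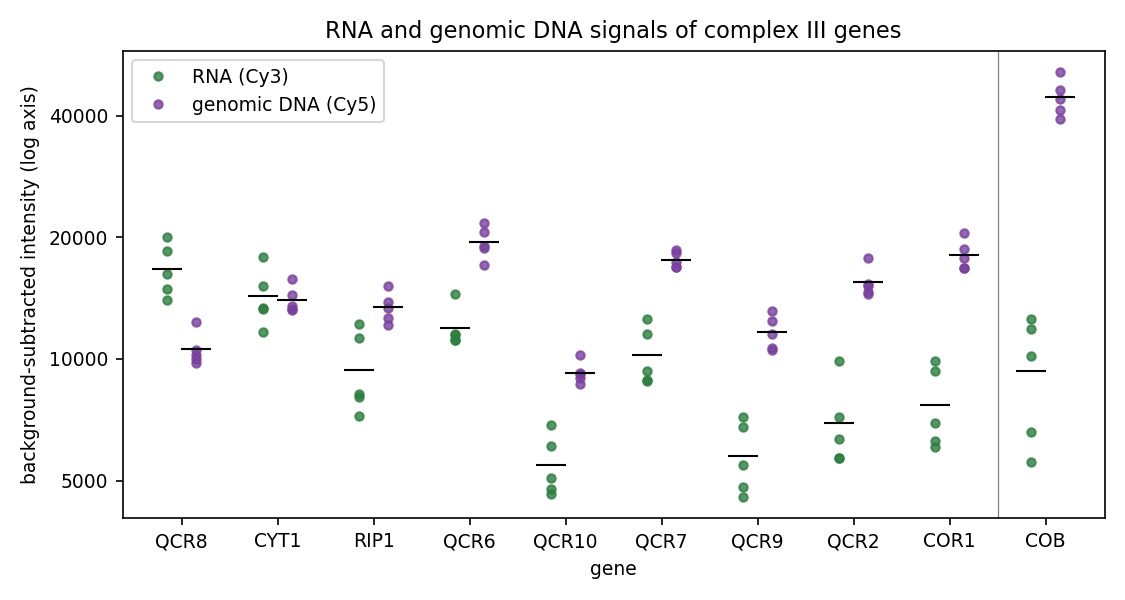
Background-subtracted intensities (log axis) of RNA (Cy3, green) and genomic DNA (Cy5, purple) for each gene, 1 point per array, with the mean of 5 arrays as a black bar. Genomic DNA signals of the 9 nuclear genes averaged 9254 to 19445, and that of COB 44429.

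The last catalytic subunit, cytochrome b, comes from the mitochondrial genome, which cells hold in many copies. COB stood at 0.65, 0.087, 0.29, 1.01 and 0.46 log2 on arrays 1 to 5, with its high value on array 4 and its low value on array 2. Its mean was 0.50 ± 0.35 (SD, n = 5), and no array reached the lowest nuclear member. Its SD was larger than that of 98.2% of all genes, whereas the SDs of the 9 nuclear genes were 0.06 to 0.11, with 5 of the 9 under the median of 0.080 over all genes. The RNA signal of COB varied more (SD 0.43 log2) than its genomic DNA signal (SD 0.06). In RNA signal COB differed from the median nuclear member by -0.022 ± 0.39 log2. In genomic DNA signal it stood 1.65 ± 0.10 higher, which is 3.14-fold. As a ratio COB therefore lay 1.54 ± 0.32 log2 under the complex's median, and this ratio relates COB RNA to the genomic DNA signal of COB itself.

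The nuclear members were set beside the other parts of the respiratory chain. For complex IV, cytochrome c oxidase, the median of 9 nuclear subunit genes was 2.09 ± 0.03 log2 (SD, n = 5). Complex III differed from it by -0.043 ± 0.05, a mean smaller than its SD, with complex III the lower on 5 of 5 arrays and array 2 the farthest at -0.13. The difference was 0.23 with RNA alone and -0.16 with loess. For complex V, the ATP synthase, the median of 14 nuclear subunit genes was 1.92 ± 0.07. Complex III lay 0.12 ± 0.05 above it on 5 of 5 arrays, a difference whose sign changed under loess, normexp and Agilent's processed signals. Complex II, succinate dehydrogenase, lay lower, and complex III exceeded its median by 1.26 ± 0.03 on 5 of 5 arrays, or 2.40-fold. With loess that difference shrank to 0.067 and with processed signals to 0.29, its sign unchanged. These are differences of list medians with no test over genes, and over all 6256 genes the median level is 0 by construction.

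The span of the 9 members in mean level, from COR1 to QCR8, was then set against the other lists. Of the 9 genes of complex IV, 8 lay within it and 1 lay below, while 14.2% of all genes on the array lay within it. The gene below was COX5B, the hypoxic isoform of subunit 5, at -1.84 ± 0.20 (SD, n = 5), and the highest was COX13 at 3.01 ± 0.07. Of the 14 genes of complex V, 11 lay within the span. ATP1, the alpha subunit of F1, lay above it at 3.58 ± 0.06, and ATP3, the gamma subunit, was the lowest of 2 genes below it at 1.12 ± 0.06. As reported, the 4 genes of complex II all had mean levels below that of COR1. They were SDH3 at 1.45 ± 0.05, SDH1 at 0.92 ± 0.07, SDH4 at 0.63 ± 0.05 and SDH2 at -0.31 ± 0.08. Of all genes on the array, 80.9% lay below COR1, so nothing particular to complex II is read from this count. The position of complex II under COR1 also depended on processing. The complex II median lay 0.067 log2 under complex III's 0.37 with loess, and 0.29 under its 0.71 with processed signals. COR1 read -0.43 and 0.0055 there, below the complex II median.

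**Figure D3:**
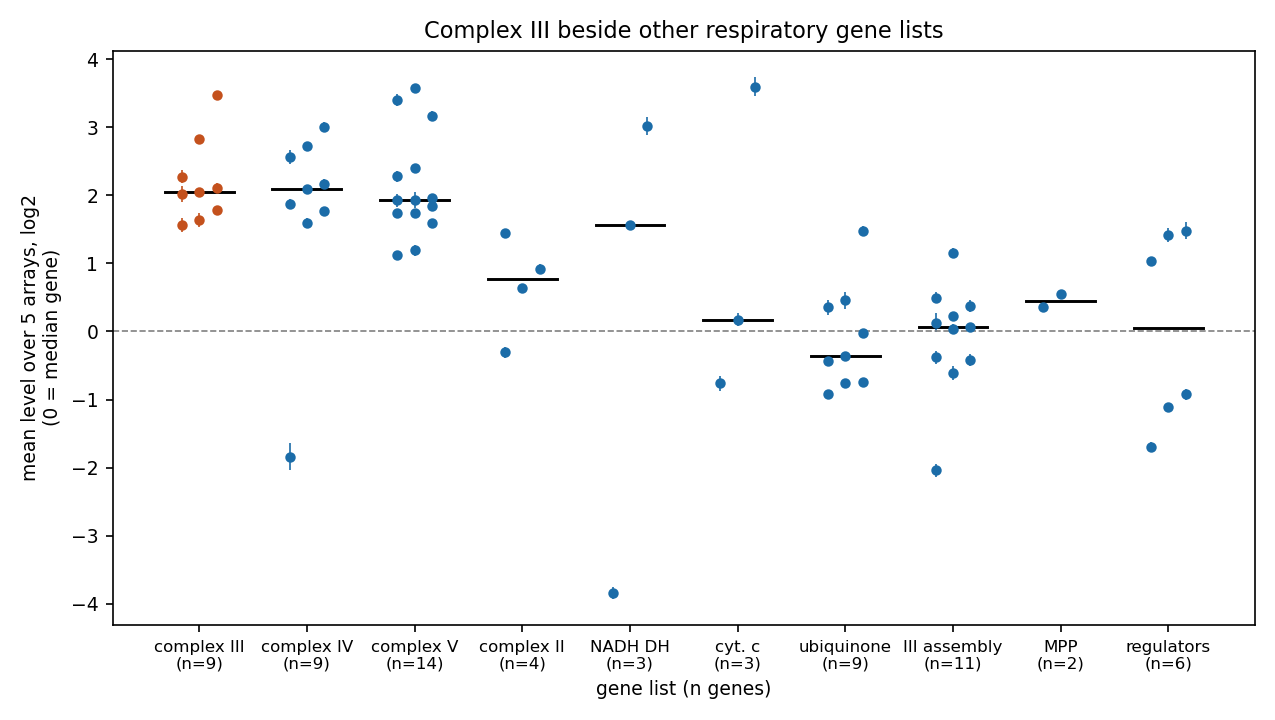
Mean levels over 5 arrays (log2, 0 at the median gene) of the complex III genes (orange) and of other respiratory gene lists (blue), 1 point per gene with its SD between arrays, and the list median as a black bar. Complexes III, IV and V shared a median near 2 while ubiquinone synthesis, complex III assembly and MPP (mitochondrial processing peptidase) lay lower; NADH DH stands for the NADH dehydrogenases.

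The cytochrome c genes with their heme lyase gene, and the dehydrogenases that feed ubiquinone, covered a wider range than the complex's own subunits. CYC1, the main cytochrome c of aerobic cells, stood at 3.60 ± 0.14 log2 (SD, n = 5), above CYT1 by 0.77 ± 0.15 on 5 of 5 arrays. CYC7, the isoform favoured at low oxygen, stood at 0.17 ± 0.10, and the cytochrome c heme lyase gene CYC3 at -0.76 ± 0.11. CYC1 exceeded CYC7 by 3.42 ± 0.19, or 10.7-fold. Among the dehydrogenases that reduce ubiquinone, NDE1 stood at 3.02 ± 0.13, NDI1 at 1.56 ± 0.05 and NDE2 at -3.84 ± 0.09, the last with both channels well above background on 3 of 5 arrays.

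Genes for factors that help to build the complex had lower levels than its subunits in the levels as reported. Of 12 listed factors for complex III assembly and for expression of COB, 11 were found. As reported, all 11 had mean levels below that of COR1. So did 80.9% of all genes, and nothing particular to these factors is read from that count. The factors' median was 0.067 ± 0.02 log2 (SD, n = 5), close to the median gene. The complex's median exceeded that of the factors by 1.98 ± 0.05 on 5 of 5 arrays, or 3.93-fold (0.26 log2 with loess, 0.49 with processed signals). The position of the factors under COR1 depended on processing. COR1 read -0.43 log2 under loess and 0.0055 with processed signals, while the complex's median was 0.37 and 0.71. The factors' median thus lay above COR1 under both. The highest was MZM1, a chaperone of the Rieske protein, at 1.15 ± 0.08, and the lowest was CBT1, which acts in processing of COB RNA, at -2.04 ± 0.10. Of 9 ubiquinone synthesis genes, 6 lay below the median gene. COQ5 was the highest at 1.48 ± 0.07 and COQ8 the lowest at -0.92 ± 0.05. The processing peptidase genes MAS1 and MAS2, relatives of the core proteins, stood at 0.55 ± 0.04 and 0.35 ± 0.07. As reported, the core proteins' median exceeded theirs by 1.15 ± 0.07 on 5 of 5 arrays. That difference is not given here under other treatments of the signal. COR1 and QCR2 themselves fell to -0.43 and -0.11 with loess, and to 0.0055 and 0.060 with processed signals.

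Regulators of respiratory genes were split, with 3 of the 6 above the median gene. HAP4, the activating subunit of the Hap2/3/4/5 complex, was the highest at 1.48 ± 0.13 log2 (SD, n = 5), and HAP5, a subunit that binds the DNA, was the lowest at -1.70 ± 0.07. As reported, the mean of HAP4 lay under that of COR1, the lowest complex III member. HAP4 was the higher of them on array 3, at 1.70 against 1.44. Their order under other treatments of the signal is not given here.

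The scan sessions were compared as a technical check on the members. In limma, 0 of the 9 genes passed a Benjamini-Hochberg adjusted p of 0.05 (2.64% of all genes did), and 0 of the 9 had an unadjusted p under 0.05 (20.2% of all genes). Their differences, second minus first session, ran from -0.096 (QCR6, SE 0.06, limma adjusted p = 0.409) to 0.16 log2 (QCR7, SE 0.07, limma adjusted p = 0.251). The sessions did not overlap for 4 of the 9, against 38.9% of all genes. COR1, QCR7 and QCR9 were higher in the second session (18.9% of all genes were) and QCR6 was lower (20.0% of all genes were). These 4 passed in limma with slide as a random block, where 35.8% of all genes did. COB read 0.39 higher in the second session (SE 0.19, limma adjusted p = 0.313), with the sessions overlapping.

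Deviations of the members from their own means shared a sign within an array only in part. The share of all genes above or below their own mean on each array is not given here. Nothing particular to complex III is therefore read from these counts. On array 2, 8 of the 9 lay under their own mean, with a median deviation of -0.083 log2. On arrays 1 and 5, 6 of the 9 lay above it, with median deviations of 0.033 and 0.059. Arrays 3 and 4 each had 4 above and 5 below. The exception on array 2 was QCR6, which was at its highest there.

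Genes adjacent to the members were examined as well. In the RefSeq table of assembly R64, used for names and for the order of genes, no other gene overlapped a member. Of 17 adjacent genes with a probe, 15 were below their member on 5 of 5 arrays, and the median of the 17 was -0.42 log2. Since the members stand above 80.9% to 95.1% of all genes, most genes of the array lie below them, and nothing particular to neighbours is read from this count. The exceptions, named after their values were seen, were ERG20 beside QCR8 at 3.53 ± 0.04 (SD, n = 5) and RPC82 beside QCR2 at 2.09 ± 0.09. QCR8 was above ERG20 on 1 of 5 arrays and differed from it by -0.061 on average. Outside the complex, the genes closest to its median over the 5 arrays were SEC13, a coat and nuclear pore protein, PHB1, a prohibitin of the inner mitochondrial membrane, and FTR1, an iron permease. Their root mean square differences from it were 0.039, 0.044 and 0.045 log2.

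Processing changed both the distance to the median gene and the order below QCR8. Loess removes any trend of the ratio with brightness, and the processed signals carry the scanner software's dye normalization. QCR8 was the highest member under all 5 treatments of the signal that were drawn. The rank of QCR10 ran from last by RNA alone to second with processed signals and with loess, where CYT1 ranked 3 and 4. COR1, QCR2, QCR6 and QCR7, which have 4 of the highest genomic DNA signals among the 9, fell below the median gene under loess.

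**Figure D4:**
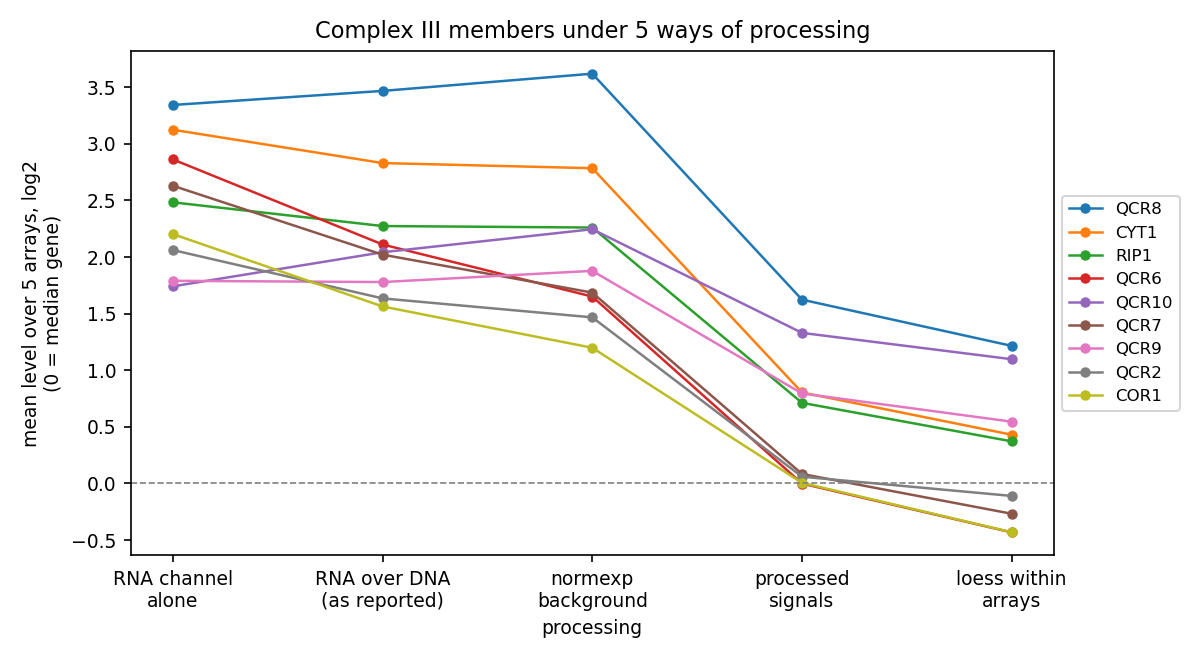
Mean levels of the 9 genes over 5 arrays (log2, 0 at the median gene) under 5 ways of processing, with a line joining the values of 1 gene. QCR8 was highest throughout, at 3.34 by RNA alone, 3.47 as reported and 1.22 under loess.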

How the data were processed

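In the deposited scanner output, each spot has an intensity per channel and flags of 0 or 1. The software was Agilent Feature Extraction 10.1.1.1 per the file headers. The spot median minus its local background median was computed for both dyes, and the log2 ratio of Cy3 to Cy5 was formed per spot. Controls and outlier-flagged spots (1.41% to 3.81% of gene spots per array) were dropped, and no gene spot was saturated. Ratios were averaged over the spots of a gene and quantile normalized between arrays (limma 3.58.1, R 4.3.3). The number of arrays limits the precision. The authors also deposited a log2 table of Cy3 over Cy5, whose column medians of -3.01 to -2.57 show that it was not centred. It matched unsubtracted spot medians for 89.4% to 99.6% of genes within 0.001 log2, and subtracted ones for 6.03% to 8.06%, and served as an alternative.

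Scan sessions were compared with lmFit and eBayes in limma over all 6256 genes, a step tested on simulated data. The simulated arrays had independent noise and no slide effect, so that test does not cover the effect of slides. A gene was taken as well above background where at least 50% of its 7 spots were marked so. The members and gene lists were chosen with earlier results of these data known. Named were all members, COB, the highest and lowest gene of each list (all genes of lists of 4 or fewer), and the 3 genes nearest to the complex's median. Older array names were matched through the RefSeq table, in which 5756 of the array's 6256 systematic names, and all 9 members, were found. BCA1, a listed factor, was not matched by name. Alternatives were flagged spots kept, median over spots, normexp with offset 50, processed signals, loess, median centring, RNA alone, well-above-background spots only, the authors' table, single sessions, single arrays left out and slide as a random block.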

Additional observations from a re-analysis of the deposited data

Results flagged for a closer look

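A search for 1 array lying far from the other 4 was run on 17 quantities and returned 1. Chance passes the search's threshold in about 1 in 20 quantities, so 1 return among 17 is near what chance gives. The difference between the medians of complex III and complex IV was -0.13 log2 on array 2, against -0.038 to -0.0016 on the other arrays. On that array 8 of the 9 complex III genes lay under their own means, a count given without the share over all genes. The cause was not tested.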

How the results depend on the processing

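Keeping flagged spots, the median over spots, median centring, only spots well above background, the authors' table, single sessions and single arrays left out moved none of the complex's median, the distance from its highest to its lowest gene, or the differences to complexes II, IV and V and the assembly factors by more than 1 SD between arrays. The other treatments of the signal did. With RNA alone, normexp, processed signals and loess, the complex's median was 2.46, 1.88, 0.71 and 0.37 log2, and the distance from highest to lowest gene was 1.63, 2.42, 1.65 and 1.69. The difference to complex II was 1.71, 0.99, 0.29 and 0.067, and that to the assembly factors was 2.70, 1.62, 0.49 and 0.26, so both kept their sign. The difference to complex V was 0.53, and reversed to -0.20, -0.36 and -0.37. The difference to complex IV was 0.23 with RNA alone and -0.16 with loess. Under loess COR1, QCR2, QCR6 and QCR7 turned to -0.43, -0.11, -0.43 and -0.27, and QCR6 read -0.00096 with processed signals. The causes were not tested.

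Between scan sessions 165 genes passed in limma. This count was 41 with flagged spots kept, 99 with the median over spots, 327 with median centring, 1 with normexp, 8 with loess, 0 with RNA alone (1182 at an unadjusted p under 0.05), 2270 with only spots well above background and 2242 with slide as a random block. With single arrays left out it ranged from 5 to 174, and was 18, 60, 5 and 54 without arrays 2, 3, 4 and 5. With slide as a random block 4 complex III members passed, and under every other alternative run 0 did.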
